A study of Mus musculus with 198 samples.

Results

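The glutathione transferases described here are 10 genes that were chosen by name: Gsta4, Gstm1, Gstm5, Gstm7, Gstp1, Gstt1, Gstt3, Gsto1, Mgst1 and Mgst3. All array probes that the platform annotation assigns to these symbols were taken. Of the 10 genes, 9 had a probe, with 14 probes in all out of 25697 on the array. Gstm7 was not analysed here. Gsta4 lies on chromosome 9, Gstm1 and Gstm5 on 3, Gstp1 and Gsto1 on 19, Gstt1 and Gstt3 on 10, Mgst1 on 6 and Mgst3 on 1 (RefSeq, GRCm38.p6). Gstm1, Mgst1 and Mgst3 had 2 probes each, Gstp1 had 3 and the other 5 genes had 1. For each gene the main probe is the one with the highest mean signal over both tissues.

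RNA came from whole hippocampus and whole striatum of male mice of the Hybrid Mouse Diversity Panel and was measured on Illumina MouseRef-8 arrays. The panel joins classical and other inbred strains with recombinant inbred (RI) sets, in which the genomes of a pair of parent strains are fixed in new combinations. The BXD set descends from B6 and DBA, the AXB/BXA set from B6 and AJ, and the BXH set from B6 and C3H. There were 99 strains in hippocampus (30 BXD, 28 AXB/BXA, 11 BXH and 30 inbred) and 97 in striatum (30 BXD, 28 AXB/BXA, 10 BXH and 29 inbred), and 96 strains had arrays of both tissues. The labels give neither age nor treatment. In the study's methods, male mice of the panel went through conditional fear tests. A strain was measured on 1 array in each tissue, except that B6Cc3 had 2, so the spread given below is between strains and no error within a strain can be given. In whole tissue, fewer cells of a type and less RNA per cell cannot be told apart.

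Glutathione transferases join the thiol of the tripeptide glutathione to electrophiles, which are then exported or broken down. The cytosolic enzymes fall into classes named alpha (Gsta), mu (Gstm), pi (Gstp), theta (Gstt) and omega (Gsto), and the membrane-bound Mgst enzymes belong to a separate protein family. In brain the mu and alpha classes are known above all from astrocytes and the pi class from oligodendrocytes. Many of these genes are known targets of Nrf2, a transcription factor that binds antioxidant response elements when cells meet electrophiles or oxidants.

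The 4 arrays that stood apart from the rest of their tissue touch many values below. They are the hippocampus array of AXB19b, whose median rank correlation with the other hippocampus arrays was 0.615 and on which 22.4% of probes were detected, and the striatum arrays of SM (0.856), NZW (0.890) and KK (0.919). KK was taken for its markers, given below, since the hippocampus array of CAST, which was kept, had a lower value (0.914). Over all arrays the share of probes detected had a median of 43.7% in hippocampus and 43.9% in striatum. Tissue markers matched the labels with 1 exception, the striatum array of KK, and a smaller shift in the striatum array of BXH22. All 9 detected striatal neuron markers were lower in hippocampus, among them Drd1 (-4.56 on the log2 scale) and Drd2 (-4.38), and 7 of 8 hippocampal neuron markers were higher there. The mean of the striatal markers ran from 8.80 to 10.07 in hippocampus and was 9.40 in the striatum array of KK. The other striatum arrays ran from 11.29 (BXH22) to 13.19, with a median of 12.83 over all of that tissue. The KK array had the highest hippocampal marker mean of the striatum arrays, 9.09, against 9.53 to 10.37 in hippocampus. BXH22 came next in striatum, at 8.75 for hippocampal markers and 8.26 for meninges and fibroblast markers, where the medians were 7.94 and 7.11. The BXH22 array was kept in all results. Results that rest on the 4 arrays that stood apart are given with and without them.

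Promoter sequences are shown for Gstm5 and Gstm1, whose strain values ran together most closely, and for Mgst1, whose probes gave unlike strain patterns. Each runs from 250 bases before to 50 bases after the RefSeq start site, on the strand of the gene, in build GRCm38.p6. Capitals mark the core of the antioxidant response element, TGACNNNGC, searched on both strands. Its first letters are shared with the sites of AP-1 and of cyclic AMP response factors.
Gstm5, chr3:107895604-107895903, plus strand: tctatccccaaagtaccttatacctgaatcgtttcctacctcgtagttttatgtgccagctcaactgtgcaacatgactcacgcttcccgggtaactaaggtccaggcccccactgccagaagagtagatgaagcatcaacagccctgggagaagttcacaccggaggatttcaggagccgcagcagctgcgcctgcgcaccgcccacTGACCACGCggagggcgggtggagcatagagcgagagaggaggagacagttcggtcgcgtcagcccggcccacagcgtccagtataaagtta
Gstm1, chr3:108017769-108018068, minus strand: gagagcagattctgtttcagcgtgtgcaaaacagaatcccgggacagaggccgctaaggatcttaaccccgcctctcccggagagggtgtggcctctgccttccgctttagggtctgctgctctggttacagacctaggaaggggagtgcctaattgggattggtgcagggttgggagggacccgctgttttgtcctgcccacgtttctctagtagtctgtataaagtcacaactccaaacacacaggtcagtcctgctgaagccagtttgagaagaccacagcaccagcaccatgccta
Mgst1, chr6:138140277-138140576, plus strand: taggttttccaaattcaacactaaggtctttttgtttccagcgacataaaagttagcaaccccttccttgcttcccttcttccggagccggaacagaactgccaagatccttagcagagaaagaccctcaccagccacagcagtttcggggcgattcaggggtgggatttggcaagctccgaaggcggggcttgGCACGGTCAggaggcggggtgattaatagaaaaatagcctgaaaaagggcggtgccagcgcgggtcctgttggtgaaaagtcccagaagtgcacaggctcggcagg
The core was found once in the Gstm5 promoter, at position -42 from the start site as TGACCACGC, and once on the opposite strand of the Mgst1 promoter, at -56 as GCACGGTCA. It was not found in these letters of Gstm1. RefSeq promoters were matched for 9 of the 10 genes, all but Gsta4, with 13 promoters listed in all, of which 3 held the core, 1 each of Gstm5, Gstm7 and Mgst1. Of all 32851 promoters of this length, 12.4% held it. A match in letters is a description and not evidence of binding.

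The first comparison asked in which tissue each transferase was higher. Here both tissues were normalized together. Hippocampus had the higher signal for Gsta4, Mgst3, Gsto1 and the main probe of Gstm1, and striatum for Gstt3 and the main probe of Mgst1. Of the 14 probes, 5 passed limma's test (adjusted p under 0.05) in favour of hippocampus and 3 in favour of striatum, and 6 did not pass. This test did not pair the tissues of a strain, and results with the strain as a block are given further on. Over all 12775 probes tested, 36.7% were higher in hippocampus and 38.6% in striatum, and 75.3% were called in either direction. The transferase count in favour of hippocampus lay near the array's share, and that in favour of striatum lay below it. The median log2 difference (hippocampus minus striatum) of the 14 probes was 0.07, beside -0.0066 for the whole array. Only 1 transferase probe, that of Gsta4, was also past 2-fold, against 7.42% of all probes in either direction and 3.89% in favour of hippocampus.

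Gsta4 encodes the alpha-class enzyme that conjugates 4-hydroxynonenal, an aldehyde formed when membrane lipids are oxidised. Its log2 signal ran from 8.07 through a median of 9.70 to 10.26 in hippocampus and from 6.57 through 8.59 to 9.93 in striatum. It was higher in hippocampus in 95 of 96 strains, by 1.03 ± 0.0539 (log2, SE), or 2.04-fold (adjusted p = 1.77e-45, limma). The full ranges of the tissues overlapped, although the difference was larger than the SD over strains in each tissue (0.342 in hippocampus and 0.413 in striatum).

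Mgst3, a membrane-bound enzyme that can add glutathione to leukotriene A4, followed on both of its probes. On the main probe (ILMN_2615035) hippocampus ran from 11.39 through 12.09 to 12.72 and striatum from 11.20 through 11.81 to 12.48. Hippocampus was higher by 0.31 ± 0.0383 (adjusted p = 3.74e-13, limma), in 81 of 96 strains. The second probe (ILMN_1238479) gave a difference of 0.61 ± 0.0504 and a higher hippocampus value in 93 strains.

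Gsto1, the omega-class enzyme that also reduces dehydroascorbate, had a median of 10.89 in hippocampus and 10.41 in striatum. It was higher in hippocampus in 94 of 96 strains, by 0.42 ± 0.0706 (adjusted p = 2.47e-08, limma). The exceptions to its narrow spread were the lowest array of each tissue, at 4.96 in hippocampus (AXB19b) and 8.74 in striatum (SM). Without the 4 arrays that stood apart the difference was 0.46.

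Gstm1, a mu-class enzyme, gave opposite signs on its probes. The bright main probe (ILMN_1228233) had a median of 11.80 in hippocampus and 11.45 in striatum and was higher in hippocampus by 0.36 ± 0.0425 (adjusted p = 1.18e-14, limma), in 89 of 96 strains. The dim second probe (ILMN_2626491) was detected on 14% of hippocampus arrays and 37.8% of striatum arrays. It had medians of 5.87 and 6.13 in hippocampus and striatum, and was lower in hippocampus by 0.24 on the log2 scale (adjusted p = 6.53e-06). Because so few hippocampus arrays detected this probe, it was left out of tissue agreement, strain set means and separate levels. It entered the tissue difference, also by strain set, and the comparison of probes of a gene.

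Gstt3, a theta-class enzyme, was the transferase most clearly higher in striatum. Its log2 signal ran from 5.92 through 7.04 to 7.86 in hippocampus and from 6.40 through 7.61 to 8.29 in striatum. Hippocampus was lower by -0.51 ± 0.0512 (adjusted p = 1.34e-18, limma), and striatum was higher in 82 of 96 strains. Mgst1, a membrane-bound enzyme of endoplasmic reticulum and mitochondria with peroxidase activity, was lower in hippocampus on its main probe (ILMN_2940195), by -0.38 ± 0.0492 (adjusted p = 1.53e-12). Its medians were 8.39 in hippocampus and 8.79 in striatum, and 82 of 96 strains were higher in striatum. The second Mgst1 probe (ILMN_2669416) showed a difference of -0.0071 with a 95% interval of -0.29 to 0.28.

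Gstp1, Gstt1 and Gstm5 did not pass this test. The main probe of Gstp1, the pi-class enzyme, had medians of 12.68 in hippocampus and 12.57 in striatum, a difference of 0.086 with a 95% interval of -0.072 to 0.24. Gstt1, a theta-class enzyme that acts on small halogenated molecules, had medians of 7.15 in hippocampus and 7.08 in striatum (difference 0.054, interval -0.055 to 0.16). Gstm5, a mu-class enzyme, had medians of 12.45 and 12.32 in hippocampus and striatum, a difference of 0.12 (adjusted p = 0.0735, limma), and was higher in hippocampus in 67 of 96 strains. With the strain taken as a block over the 96 paired strains, Gstm5 passed (0.12, adjusted p = 0.00717). It also passed without the 4 arrays that stood apart, at 0.12 with adjusted p = 0.0248, as did the main Gstp1 probe at 0.093 with adjusted p = 0.0121.

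**Figure D1:**
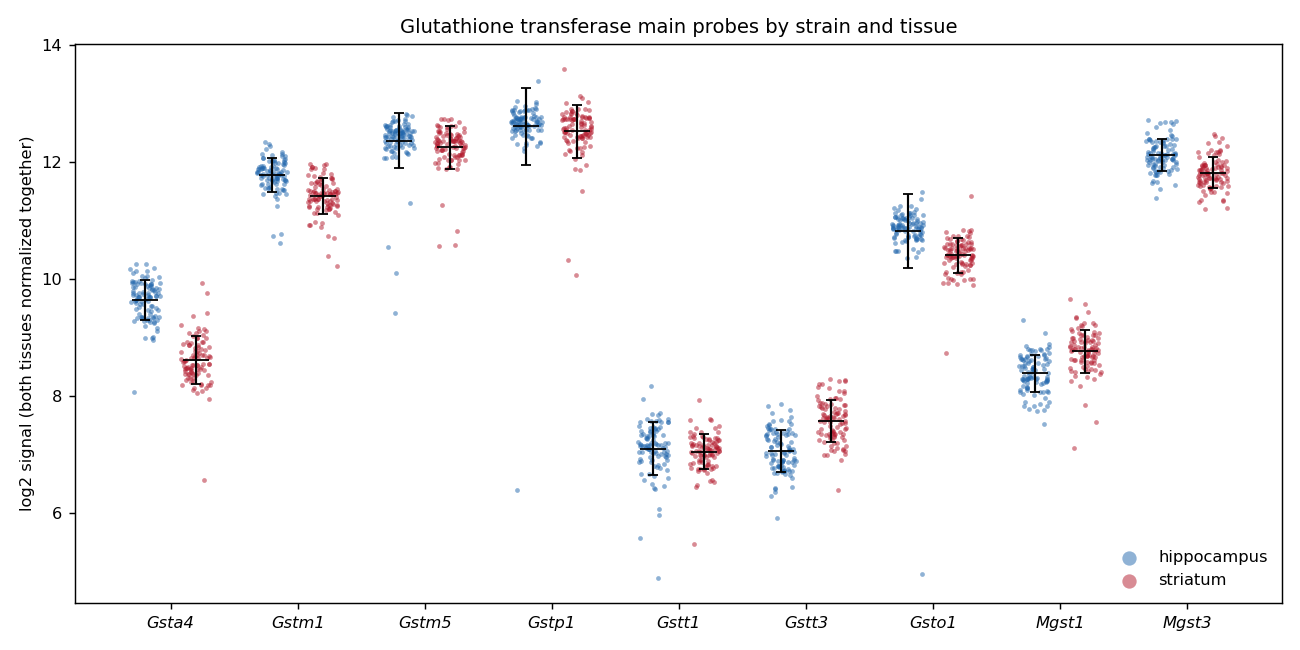
Log2 signal of the main probe of each gene, with both tissues normalized together. Each point is 1 strain, hippocampus on the left (n = 99) and striatum on the right (n = 97), with the mean and SD over strains in black. Gsta4 has the widest gap between tissues (1.03), Gstt3 and Mgst1 sit higher in striatum, and single low points are the array AXB19b in hippocampus for Gstp1, Gsto1 and Gstt1.

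The other genes of glutathione metabolism give the setting of these differences, each gene taken by its brightest detected probe. Of 10 other transferases tested, 5 were higher in hippocampus and 5 in striatum (median difference -0.0062). The mu-class genes Gstm6 (0.50), Gstm2 (0.41) and Gstm4 (0.39) were higher in hippocampus, all with adjusted p under 0.05. The alpha-class Gsta3 (-0.61) and Ltc4s (-0.45), the leukotriene C4 synthase, were lower in hippocampus. Of 13 genes of glutathione synthesis and recycling, 9 were higher in hippocampus and 1 in striatum, and 3 did not pass (median 0.17). They included Gss, the glutathione synthetase (0.45), and Me1, a malic enzyme that makes NADPH (0.90), whereas Gclm, the modifier subunit of glutamate-cysteine ligase, was lower (-0.23). Of 21 peroxidases and thiol enzymes, 8 were higher in hippocampus and 7 in striatum (median 0.038). Glrx, a glutaredoxin, was at 0.80 and Gpx1, the main cytosolic glutathione peroxidase, at -0.86. Of 15 genes of the Nrf2 pathway, 4 were higher in hippocampus and 8 in striatum (median -0.12). Nqo1 (-0.62), a quinone reductase, and Ephx1 (-0.53), an epoxide hydrolase, are both classical Nrf2 targets and were lower in hippocampus. The 4 genes of this list that were higher there were Bach1 (0.43), Cbr1 (0.30), Fth1 (0.28) and Cul3 (0.077). Of 2 conjugate exporters tested, Abcc10 was lower in hippocampus (-1.05) and the other did not pass. Most of these counts again stand beside the 75.3% of all probes that were called in either direction.

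Cell type markers also differed between the tissues. Of 13 astrocyte markers, 5 were higher in hippocampus, led by Gfap (1.76) and Aqp4 (0.81). Another 3 were higher in striatum, namely Glul (-0.54), Ntsr2 (-0.30) and Slc1a3 (-0.048), and 5 did not pass. The median difference of the astrocyte list was -0.00087. Its mean level ran from 9.45 to 10.41 in hippocampus arrays and from 9.43 to 10.18 in striatum arrays. Of 9 oligodendrocyte markers none was higher in hippocampus and 8 in striatum (median -0.72), with list means of 10.39 to 11.99 in hippocampus and 10.81 to 12.52 in striatum. Of 9 endothelial markers 8 and of 9 microglia markers 5 were higher in striatum and none in hippocampus, with medians of -0.38 and -0.14. All 7 meninges and fibroblast markers were higher in hippocampus (median 1.63), with list means of 7.62 to 9.49 in hippocampus and 6.60 to 8.35 in striatum. Of 8 choroid plexus markers 4 were higher in hippocampus and 1 in striatum. Of 4 oligodendrocyte precursor markers 1 was higher in each tissue, and the same held for 5 ependyma markers. Of 5 pericyte and smooth muscle markers 2 were higher in hippocampus and 1 in striatum. Of 6 general neuron markers 4 were higher in hippocampus and 2 in striatum. The part of these cell types in the transferase differences was not tested.

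The second comparison asked whether a strain that was high in one tissue was also high in the other. Each tissue was normalized on its own for this and for all strain values that follow. The relation was tested for 13 probes that 20% or more of both tissues' arrays detected, and 10 had a positive correlation over the 96 strains at an adjusted p under 0.05, against 42.7% of all 11746 probes. Their median r was 0.42, where that of the whole array was 0.19. Without the 4 arrays that stood apart (92 strains) all 13 passed, against 57.5% of all probes, and the medians were 0.49 over the transferase probes and 0.27 over all. These counts and medians include Mgst1 ILMN_2669416, whose strains form separate levels, described below. Altogether 65 relations were computed for the transferases, 13 over the panel and the rest within strain sets, and p-values were adjusted over all probes of the array.

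Among the mu-class genes Gstm5 was low in 3 inbred strains, RIII, MA and NZW, in both tissues. Their log2 signals were 10.02, 10.47 and 11.22 in hippocampus, where the median strain stood at 12.39, and 10.66, 10.64 and 10.90 in striatum, where the median was also 12.39. RIII was 5.16-fold and MA 3.79-fold below the median in hippocampus, and 3.31-fold and 3.36-fold below it in striatum. NZW was 2.25-fold and 2.80-fold below it in hippocampus and striatum. Leaving aside the hippocampus array of AXB19b at 9.33, all other strains lay between 11.997 and 12.76 in hippocampus and between 11.34 (SM) and 12.80 in striatum, so these 3 strains did not overlap with the rest.

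The same 3 strains were the lowest of the panel for the main probe of Gstm1. RIII, NZW and MA had 10.53, 10.65 and 10.68 in hippocampus, against a median of 11.73. The next lowest arrays there were AXB19b at 11.18 and 129X1 at 11.30. In striatum MA had 10.31, RIII 10.48 and NZW 10.78, against a median of 11.52, and the gap to the next strain, BXD13 at 10.82, was small. On the dim Gstm1 probe NZW alone was near the bottom, at 5.02 in hippocampus and 5.38 in striatum, while MA and RIII lay within the range of the others.

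Other mu-class genes were looked at in these strains after the pattern had been seen. Gstm2 had 3 probes. On ILMN_1251449, RIII, NZW and MA were the 3 lowest strains in hippocampus (6.84, 6.87 and 6.91, median 8.02). In striatum RIII (5.51) and MA (6.54) were the lowest there and NZW (7.24) ranked 8 of 97 from the bottom. On the brightest Gstm2 probe, ILMN_2624854, AXB15 (6.68) was the lowest in hippocampus, before NZW, MA and RIII at ranks 2, 3 and 4, and in striatum MA (5.68) and RIII (5.9977) were lowest and NZW ranked 11. On ILMN_2862470 RIII ranked 2, MA 4 and NZW 13 in hippocampus, and MA 3, RIII 9 and NZW 10 in striatum. Gstm6 differed between its probes. On the brighter one, ILMN_1246321, RIII ranked 11, MA 15 and NZW 60 of 99 in hippocampus, so that NZW was above the median, and NZW 2, MA 20 and RIII 24 of 97 in striatum. On ILMN_2633096 RIII ranked 2, MA 13 and NZW 18 in hippocampus, and NZW 1, RIII 2 and MA 10 in striatum. For Gstm4 RIII was the second lowest in hippocampus (6.84, median 7.33) and MA ranked 10, whereas in striatum RIII (6.93) and MA (6.96) were closer to the median of 7.04 and NZW was above it at 7.66.

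Cell type markers of these strains varied as well. The mean of the astrocyte markers stood at 10.09 in MA, 10.22 in NZW and 10.12 in RIII in hippocampus, above the panel median of 10.003. In striatum it was 10.01 in MA and 10.09 in RIII, above the median of 9.90, and 9.48 in NZW, the lowest of the panel. The striatum array of NZW is among the 4 that stood apart. MA had low oligodendrocyte precursor markers, at 8.16 in hippocampus (rank 2 of 99, median 9.42) and 8.60 in striatum (rank 3 of 97, median 9.61), where NZW and RIII had 9.27 and 9.48 in hippocampus and 9.70 and 9.58 in striatum. Its endothelial markers were also low, at ranks 6 in hippocampus and 10 in striatum, and those of NZW ranked 6 in striatum. Microglia markers of RIII ranked 98 of 99 in hippocampus. The part of these cell types in the Gstm values was not tested.

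**Figure D2:**
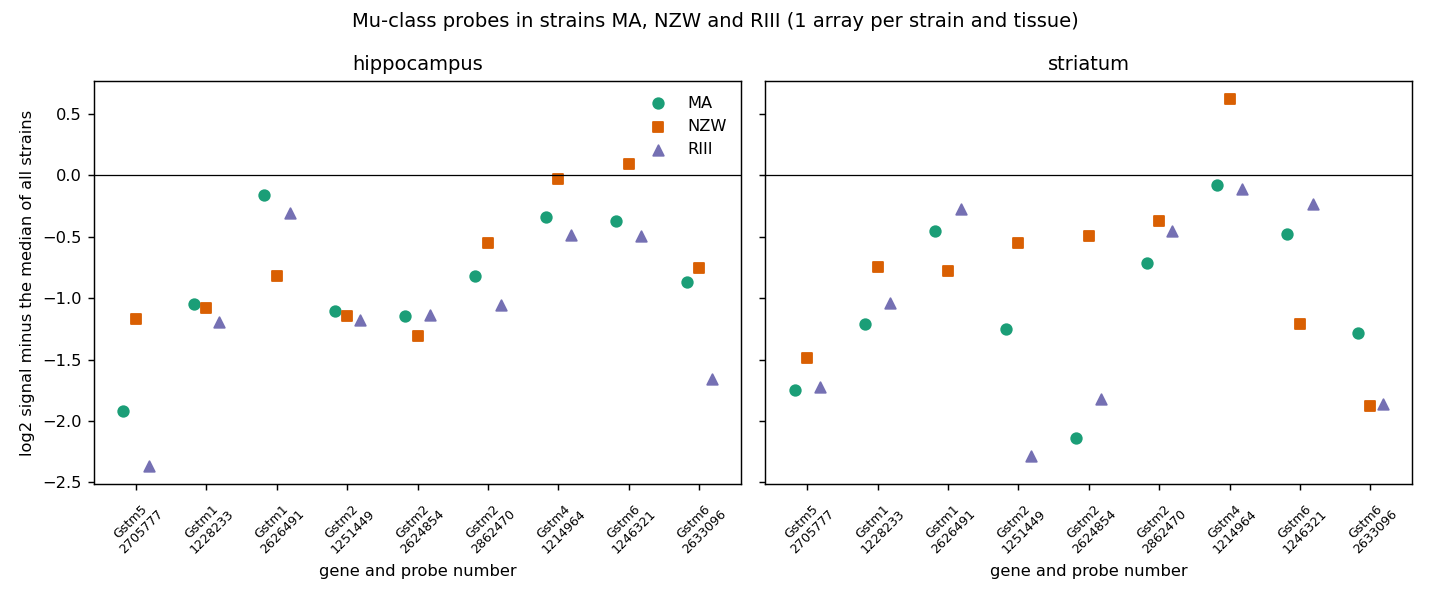
Log2 signal minus the median of all strains for the mu-class probes in strains MA, NZW and RIII, hippocampus on the left and striatum on the right, 1 array per point. For Gstm5 and the main Gstm1 probe all 3 strains lie well below 0 in both tissues, and for Gstm4 RIII and MA lie below 0 in hippocampus and NZW lies above it in striatum.

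Gstm5 and Gstm1 each had the other as the gene with the most similar strain pattern among all detected probes. Their main probes correlated with r = 0.67 in hippocampus and 0.71 in striatum (99 and 97 strains). Without the 4 arrays that stood apart the values were 0.73 and 0.74, and with MA, NZW and RIII also left out 0.40 and 0.61. The genes lie 5 protein-coding genes apart on chromosome 3 in the RefSeq gene order. These correlations share arrays and are given as a description. The next most similar were Golph3l and Tmem167b for Gstm1, 173 and 19 genes away on chromosome 3, with an r of at least 0.41 in each tissue. For Gstm5 they were Arf5 and Rab5a, on chromosomes 6 and 17, with r of at least 0.57. Without the 4 arrays Tmem167b came second for both genes (0.46 or more with Gstm1 and 0.72 or more with Gstm5).

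Across the tissues Gstm5 had r = 0.57 over 96 strains (permutation p = 6e-05, adjusted p = 8.53e-09, rho = 0.33, permutation p = 0.00099). With the 2 strains farthest from the hippocampus median left out, AXB19b and RIII, r was 0.65. Without MA, NZW and RIII it was 0.14. That value still includes arrays that stood apart, and with the 4 arrays that stood apart also left out (90 strains) it was 0.19 (adjusted p = 0.118, Benjamini-Hochberg), so the relation rests on those 3 strains. The main Gstm1 probe had r = 0.56 (permutation p = 1e-05, the smallest that 100000 permutations can give) and rho = 0.39 (p = 7e-05). It fell to 0.44 without NZW and RIII and to 0.29 without all 3 strains, or 0.30 with the 4 arrays also left out. Within the BXD set, which holds none of these strains, Gstm1 still had r = 0.55 (30 strains, permutation p = 0.00171, adjusted p = 0.0138), whereas Gstm5 had 0.32 (permutation p = 0.0909, adjusted p = 0.252).

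For Gsta4 a wild-derived strain stood apart. CAST, from Mus musculus castaneus, was the lowest strain in both tissues, at 8.01 in hippocampus and 6.61 in striatum, 3.05-fold and 4.14-fold below the medians of 9.62 and 8.66. The RI strains began at 8.88 in hippocampus (BXD42) and 8.001 in striatum (BXD20). The highest strains were RIII at 10.17 in hippocampus and SM at 10.02 in striatum. The striatum array of SM is among the 4 that stood apart. Without those arrays RIII was the highest of the paired strains in both tissues. CAST also had the lowest mean of the oligodendrocyte markers in hippocampus, 10.31 beside a median of 11.22, and the second lowest in striatum, 11.17 beside 12.0005. Its microglia markers were the lowest in both tissues (7.79 in hippocampus and 8.08 in striatum, medians 8.48 and 8.78), and its endothelial markers ranked 7 of 99 and 2 of 97 in hippocampus and striatum. The part of these cell types in the Gsta4 values was not tested. Over 96 strains Gsta4 had r = 0.59 (permutation p = 1e-05, adjusted p = 1.8e-09) and rho = 0.48 (permutation p = 1e-05). Without CAST r was 0.47. In BXD strains it was 0.52 (permutation p = 0.00331, adjusted p = 0.0233), in AXB/BXA 0.40 (permutation p = 0.0335, adjusted p = 0.241), in BXH 0.47 (10 strains, permutation p = 0.167) and in inbred strains 0.74, or 0.39 without CAST and RIII.

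Gsto1 and Gstp1 also had single strains at one end in both tissues. For Gsto1 CAST was the highest strain, at 11.42 in hippocampus and 11.49 in striatum, 1.52-fold and 1.99-fold the medians of 10.81 and 10.49. For Gstp1 C58 was the highest on both bright probes. On the main probe (ILMN_2677046) C58 had 13.34 in hippocampus and 13.63 in striatum, 1.65-fold and 1.996-fold the medians of 12.62 and 12.63. On ILMN_1223230 it had 12.52 and 12.83 in hippocampus and striatum, 1.80-fold and 2.12-fold the medians. The oligodendrocyte marker mean of C58 was below the panel median in both tissues (10.89 in hippocampus and 11.73 in striatum). Its astrocyte markers were high, at ranks 98 of 99 from the lowest in hippocampus and 91 of 97 in striatum. Its endothelial markers were low, at ranks 9 and 8 in hippocampus and striatum. The part of these cell types in the Gstp1 values was not tested. Of the 13 probes, 3 had the same lowest strain in both tissues (CAST for Gsta4, BXH22 for the dim Gstp1 probe and FVB for Mgst1 ILMN_2669416) and 3 the same highest, against 8.28% and 4.98% of all 11746 probes. FVB was at background on the Mgst1 probe, and the dim Gstp1 probe, on which BXH22 had 4.88 in hippocampus and 5.14 in striatum, was detected on 39% of hippocampus and 30.6% of striatum arrays. The striatum array of BXH22 also had shifted tissue markers, as given above. Gstp2, a close relative of Gstp1, was detected on 3% of hippocampus and 11.2% of striatum arrays, and in CAST it reached 8.87 in hippocampus and 9.93 in striatum, where the medians were 5.46 and 5.63. Probes of such close relatives can share signal, and whether they did here was not tested.

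The pooled correlations of Gsto1 and Gstp1 moved most with the arrays that stood apart. Gsto1 had r = 0.014 (permutation p = 0.864) and rho = 0.30 (permutation p = 0.00316) over 96 strains. Without the 4 arrays that stood apart r was 0.42 (adjusted p = 9.02e-05). The main Gstp1 probe had r = 0.060 (permutation p = 0.379) and rho = 0.46 (permutation p = 1e-05), with r = 0.47 without those arrays. ILMN_1223230 had 0.21 and 0.37 without them. The dim probe ILMN_2793329 had r = 0.42 (permutation p = 3e-05). Within BXD strains, which include none of the 4 arrays, Gsto1 had r = 0.55 (permutation p = 0.00137, adjusted p = 0.0127) and the main Gstp1 probe 0.46 (permutation p = 0.00991, adjusted p = 0.0543).

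Gstt1 was lowest in BUB apart from the array AXB19b. BUB had 5.55 in hippocampus and 5.50 in striatum, 2.93-fold and 3.08-fold below the medians of 7.10 and 7.13. BUB was also the lowest strain for Gstt3 in striatum, at 6.44 against a median of 7.66, but in hippocampus it lay at 6.84 beside a median of 6.99. Gstz1, the zeta-class enzyme of tyrosine breakdown and no member, was likewise low in BUB, at 7.35 and 7.51 in hippocampus and striatum with medians of 10.34 and 10.30. Gstt1 had r = 0.36 over 96 strains (permutation p = 0.00161, adjusted p = 0.0012). It was 0.26 without AXB19b and BUB, 0.51 within the inbred strains and 0.049 there without BUB and CAST. Gstt3 had r = 0.24 (permutation p = 0.0173, adjusted p = 0.0412) and 0.20 without BXD34 and BXH8.

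**Figure D3:**
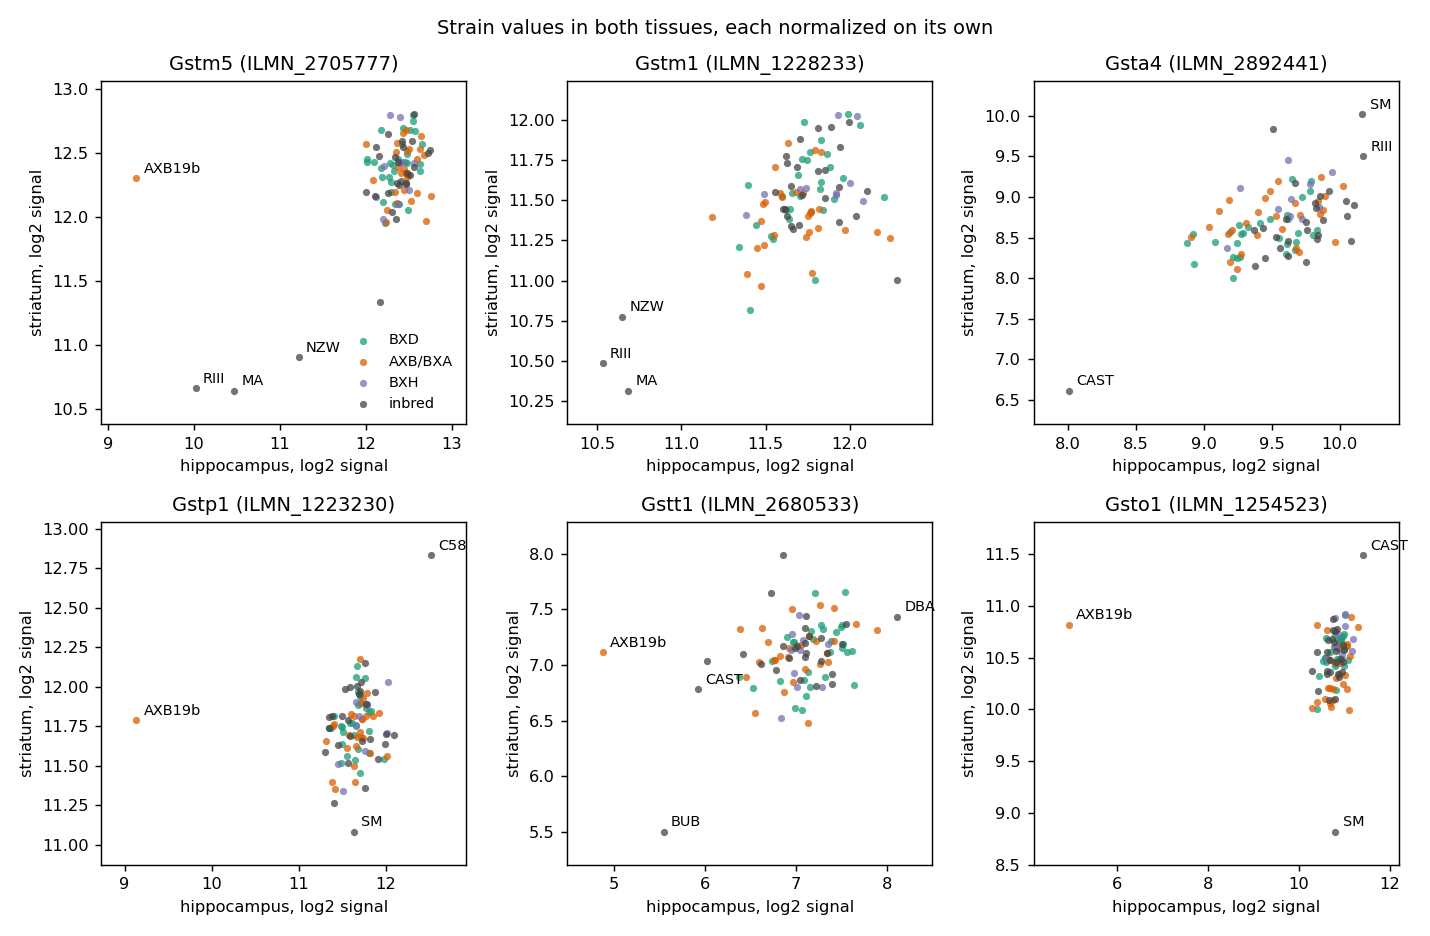
Strain values of 6 probes (main probes, but ILMN_1223230 for Gstp1) in both tissues, each tissue normalized on its own, with hippocampus on the horizontal and striatum on the vertical axis (log2 signal, n = 96 strains, coloured by strain set). RIII, MA and NZW lie apart for Gstm5 and Gstm1, CAST for Gsta4 and Gsto1, C58 for Gstp1 and BUB for Gstt1, and AXB19b is low in hippocampus only for Gstm5, Gstp1, Gstt1 and Gsto1.

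It was also asked whether strains fell into separate levels, as a gene with unlike alleles can show in inbred mice. Separate levels were called where 2 normal levels fitted clearly better than 1 (a drop over 10 in the Bayesian information criterion), with means at least 3 SD apart and at least 6 strains, or 20% of an RI set, in the smaller level. Among the 13 probes 1 met this in hippocampus and 1 in striatum, against 6.11% and 8.59% of all probes, and it was the same one, Mgst1 ILMN_2669416. Of all probes 4.21% met it in both tissues. Within the BXD, AXB/BXA and BXH sets no transferase probe met it in either tissue (2.32% and 2.33% of all probes in BXD, hippocampus and striatum, 1.59% and 2.1% in AXB/BXA, and 1.38% and 1.52% in BXH; 1.71%, 1.21% and 0.834% in both tissues).

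On this Mgst1 probe 14 inbred strains were at the low level in both tissues: BTBR, C58, CAST, FVB, I, LPJ, MA, NON, NZB, NZW, PL, RIII, SM and SWR. Their log2 signal ran from 4.53 through a median of 4.77 to 5.21 in hippocampus and from 4.71 through 4.84 to 5.01 in striatum, and the probe was detected on none of these 14 arrays in either tissue. The 79 strains at the high level in both tissues ran from 6.46 through 7.35 to 8.19 in hippocampus and from 6.57 through 7.51 to 8.34 in striatum. The low level is at background, so it gives only a bound and no fold is given. The levels, which these values themselves set, were well apart, and 93 of 96 strains had the same level in both tissues.

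No RI strain was low in both tissues, and the parents B6, DBA, AJ and C3H were all high, at 8.02, 7.14, 7.71 and 7.202 in hippocampus and 7.94, 7.54, 7.81 and 6.88 in striatum. The other inbred strains at the high level in both tissues were AKR, BUB, BalbcJ, C57L, CBA, CE, LG and NOD. A further low array carries the name 129X1 in hippocampus (4.72) and X129X1 in striatum (4.89), which were not paired because the labels differ. The 3 strains of unlike level were AXB19b, KK and B6Cc3. AXB19b was low in hippocampus only (4.62) and KK lower in striatum (5.83), and each of these arrays is among the 4 that stood apart.

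The 2 arrays named B6Cc3 differed from each other in both tissues. The first had a deposited signal of 267.7 in hippocampus and 299.1 in striatum, with a detection p of 0 in each. The second had 140.8 and 109.4 in hippocampus and striatum, with detection p of 0.566 and 0.258, and was therefore at background. Their mean gave B6Cc3 its place between the levels. On the other Mgst1 probe all 4 arrays were detected, at 471.5 and 559.2 in hippocampus and 658.9 and 456.3 in striatum.

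The main Mgst1 probe did not share the levels. The 14 strains that were low on ILMN_2669416 had a median of 8.61 in hippocampus and 9.27 in striatum on ILMN_2940195, where all other strains had medians of 8.27 and 8.84, and the probe was detected on 14 and 13 of their 14 arrays. Within BXD strains, all at the high level, they correlated with r = 0.77 in hippocampus and 0.71 in striatum (30 strains, a description). No correlation over the panel is printed between tissues for ILMN_2669416, because its strains form separate levels. The counts and medians of tissue agreement still include this probe. Within the low level r was 0.19 (14 strains, permutation p = 0.511) and within the high level 0.10 (79 strains, permutation p = 0.386). The main probe had r = 0.27 over 96 strains (permutation p = 0.00761, adjusted p = 0.0205) and rho = 0.29 (permutation p = 0.00457).

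**Figure D4:**
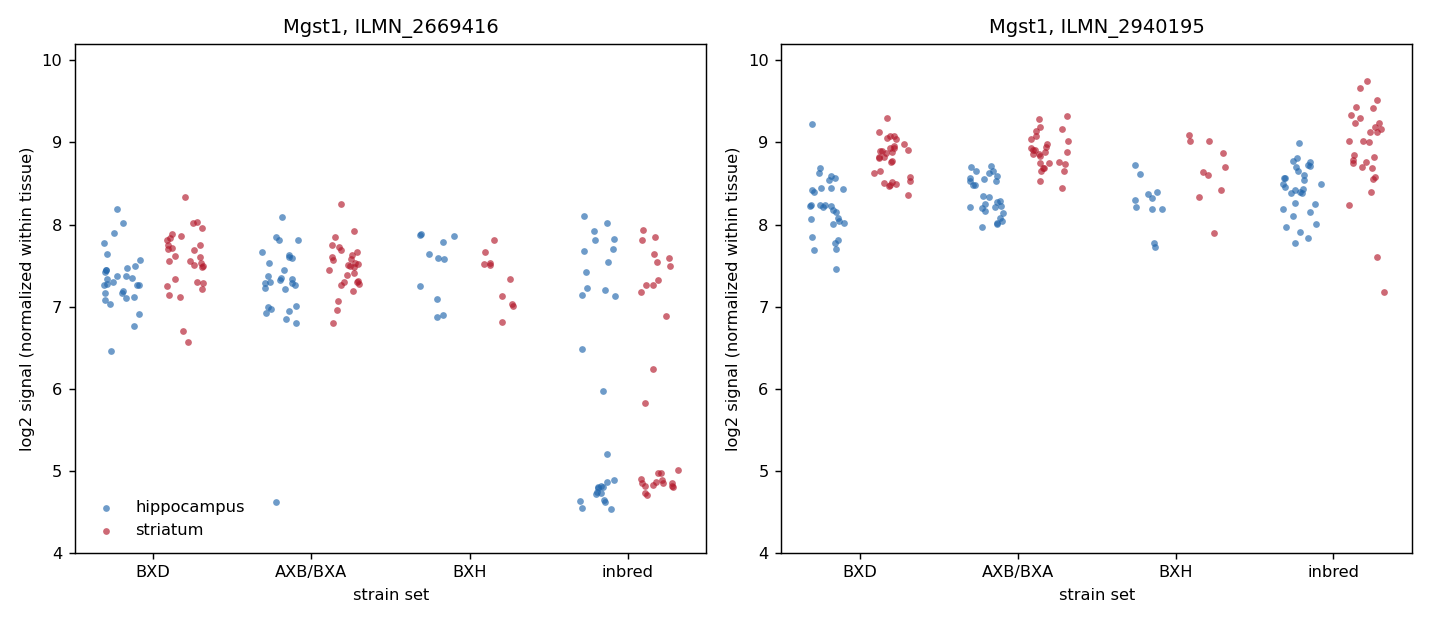
Log2 signal of the 2 Mgst1 probes by strain set, each point 1 strain, hippocampus on the left and striatum on the right of each set. On ILMN_2669416 14 inbred strains are at the low level in both tissues while no RI array but 1 in hippocampus (AXB19b) is at that level, and on ILMN_2940195 no such gap appears.

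The other genes with more than 1 probe ranged from close to no agreement between probes. The Mgst3 probes had r = 0.54 in hippocampus and 0.65 in striatum (rho = 0.75 and 0.64, all adjusted permutation p = 3e-05 over the 12 probe pairs), and 0.82 and 0.73 without the arrays that stood apart. The bright Gstp1 probes had r = 0.88 in hippocampus and 0.57 in striatum, with 0.68 and 0.64 without those arrays. The dim Gstp1 probe ILMN_2793329, detected on 39% of hippocampus and 30.6% of striatum arrays, had r = 0.053 in hippocampus (adjusted permutation p = 0.712) and -0.36 in striatum (adjusted permutation p = 0.00115) with the main Gstp1 probe. The striatum value was -0.18 without those arrays. The Gstm1 probes had r = 0.24 in hippocampus and 0.33 in striatum (adjusted permutation p = 0.0298 and 0.00204).

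The BXD parents, B6 and DBA, differed for several transferases. DBA was above B6 for Mgst3 on both probes and in both tissues, at 12.64 in hippocampus and 11.97 in striatum on the main probe, where B6 had 12.02 and 11.72. The BXD strains ran from 11.53 (BXD19) through 12.19 to 12.66 (BXD39) in hippocampus and from 11.29 (BXD38) through 11.83 to 12.41 (BXD29) in striatum, with 18 of 30 between the parents in hippocampus and 9 of 30 in striatum. Across the tissues the main Mgst3 probe had r = 0.52 in BXD strains (permutation p = 0.0032, adjusted p = 0.0216) and the second probe 0.61 (permutation p = 0.00034, adjusted p = 0.00401). In AXB/BXA strains these were 0.24 and 0.18 and in BXH strains 0.42 and -0.35, none with an adjusted p under 0.05. For Mgst1 DBA was below B6 on both probes and in both tissues, by 0.84 in hippocampus and 0.47 in striatum on the main probe. On that probe 14 of 30 BXD strains were nearer DBA in both tissues and 4 nearer B6 in both. The dim Gstp1 probe was 1.00 lower in DBA than in B6 in hippocampus and 1.04 lower in striatum, and 17 and 24 of the 30 BXD strains lay between these parents. Gstt1 was higher in DBA by 1.001 in hippocampus and 0.32 in striatum, with 19 and 16 of 30 BXD strains between the parents. For Gsto1 the DBA minus B6 difference was -0.14 in hippocampus and -0.66 in striatum, with 3 and 28 of 30 strains between the parents. With 1 array per parent and tissue these parental differences carry no error.

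Tissue agreement was also counted within each strain set. Of the 13 probes 6 passed in the inbred strains (31% of all probes), 5 in BXD (17.4%), and none in AXB/BXA (6.85%) or BXH (4.17%). The 13 probes had a median r of 0.44, 0.43, 0.048 and 0.23 in inbred, BXD, AXB/BXA and BXH strains, beside 0.29, 0.21, 0.092 and 0.26 for the whole array. Without the 4 arrays the AXB/BXA median was 0.30 (0.18 over all probes) and the inbred median 0.68 (0.41 over all probes), with 8 inbred probes past the threshold, where 42.8% of all probes passed. The inbred counts, with and without these arrays, include Mgst1 ILMN_2669416, whose inbred strains lie at separate levels. The BXH set had only 10 strains. Whether agreement differed between sets was not tested.

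**Figure D5:**
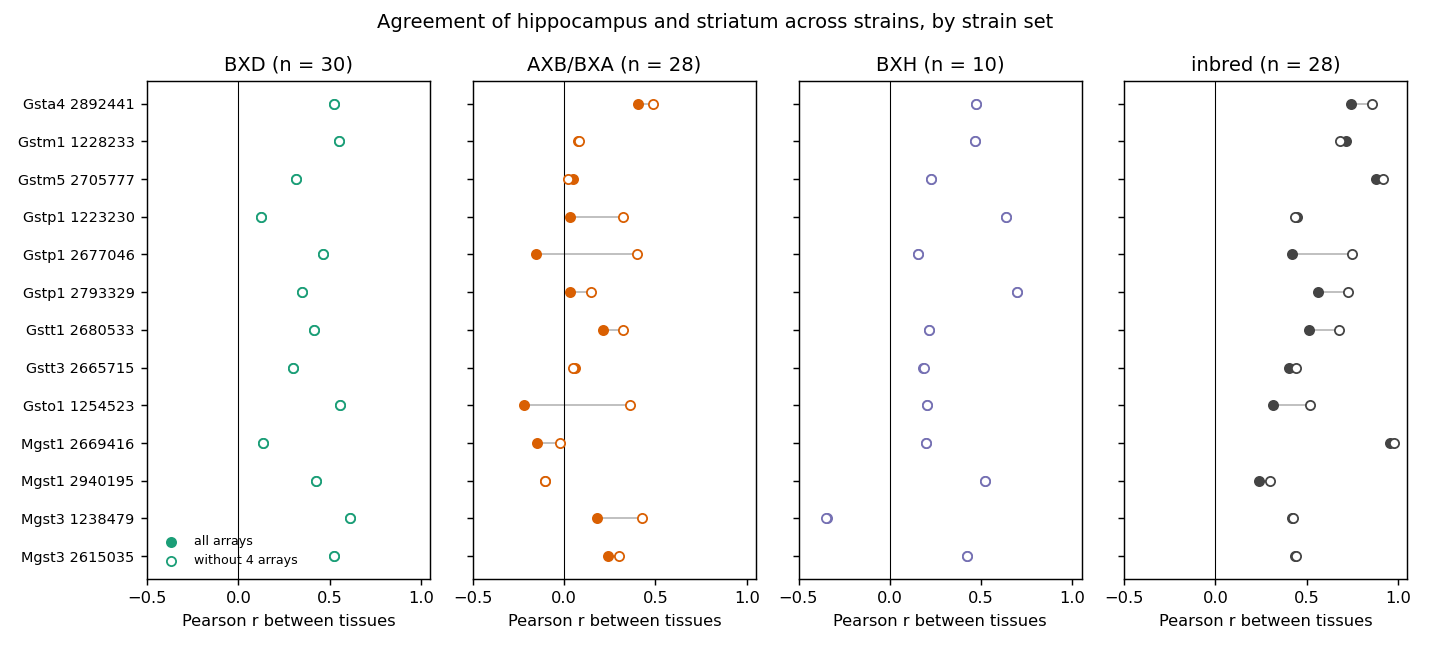
Pearson r between hippocampus and striatum for the 13 probes within each strain set, with all arrays (filled) and without the hippocampus array of AXB19b and the striatum arrays of SM, NZW and KK (open, drawn over the filled point where they coincide). In AXB/BXA strains Gsto1 and the main Gstp1 probe move from below 0 to above 0.3, and BXD strains hold none of these arrays. The inbred value of Mgst1 ILMN_2669416 spans its separate levels.

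Mean levels were also compared between the strain sets. In hippocampus 2 of 13 probes passed the F-test over the 4 sets, against 18.5% of all probes, and in striatum 4 of 13, against 49.5%. Mgst1 ILMN_2669416 passed in both tissues, with inbred means of 6.08 in hippocampus and 6.02 in striatum beside RI set means of 7.25 to 7.49 and 7.34 to 7.55 (adjusted p = 6.96e-06 and 8.74e-10, limma). Gsta4 passed in hippocampus (adjusted p = 0.0437), with 9.71 ± 0.397 in inbred strains, 9.63 ± 0.234 in BXH, 9.50 ± 0.31 in AXB/BXA and 9.43 ± 0.281 in BXD (SD, n = 30, 11, 28 and 30). In striatum Mgst3 passed on both probes (adjusted p = 0.0441 and 0.0472), with its highest mean in BXH (12.10 ± 0.229, n = 10) and its lowest in AXB/BXA (11.82 ± 0.202, n = 28) on the main probe. The dim Gstp1 probe was highest in AXB/BXA (6.28) and lowest in BXD (5.90) in striatum (adjusted p = 0.0163). Without the arrays that stood apart 4 probes passed in hippocampus (31.9% of all) and 8 in striatum (57.4% of all). With the inbred strains left out 0 passed in hippocampus (13.2% of all) and 7 in striatum (55.2% of all).

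The tissue difference itself was compared between sets over the 96 paired strains. None of the 14 probes passed, against 22.8% of all probes, and 2 had an unadjusted p under 0.05. The lowest adjusted p was 0.0501 for the main Mgst3 probe, with differences of 0.44 in BXD, 0.28 in AXB/BXA, 0.24 in inbred and 0.16 in BXH strains. Gsta4 followed (adjusted p = 0.0739), with 1.17 in inbred, 1.02 in BXD, 0.94 in AXB/BXA and 0.82 in BXH strains. Without the arrays that stood apart 4 probes passed, namely Gsta4 (adjusted p = 0.000365), the main Gstp1 probe (0.00231), Gsto1 (0.0152) and the main Mgst3 probe (0.0273). The share of all probes that passed in that setting is not given here, so this count cannot be set against the array.

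For the remaining genes the most similar strain patterns, by the lower of the correlations in the 2 tissues over 99 and 97 strains, were as follows. Gsta4 was nearest to Otub2, a deubiquitinase (r = 0.57 in hippocampus and 0.67 in striatum), followed by Lrpap1 and Gfod1. Gstt1 was nearest to Psme1, a proteasome activator subunit (0.61 and 0.52 in hippocampus and striatum), then Cox6b1 and Fdps. Gstt3 was nearest to Prdx4, a peroxiredoxin (0.44 and 0.38), and to 2 probes of Gstm2. The main Mgst1 probe was nearest to 2 probes of Gpx8 (0.48 and 0.47 for the first) and to Laptm4a, none of which stayed among the nearest 3 without the arrays that stood apart. Mgst3 was nearest to Zyx (0.60 and 0.66), Psmb10 and Tubg1. For Gstp1 (Suclg1, 0.95 and 0.93) and Gsto1 (Tmem9, 0.92 and 0.73) the arrays that stood apart set the order, since no gene named for either stayed among the nearest 3 without them.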

How the data were processed

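The members, gene lists and most alternatives were chosen with earlier results of these data known. Illumina MouseRef-8 v2.0 arrays held 25697 probes, and the deposited bead intensities and detection p-values of 198 arrays were used (100 hippocampus, 98 striatum). Per the study's methods the authors normalized in BeadStudio (version not given in the sources used here) by rank invariant scaling, on the intensity scale. The hippocampus signals equalled the authors' value table in 100% of values and the striatum signals in 0.383%. That table, set to log2, served as the alternative of the authors' processed values. From the deposited intensities, limma 3.58.1 (R 4.3.3) gave normexp background correction with detection p-values, offset 16, quantile normalization and log2. The tissues were normalized jointly for the tissue difference and separately for strain values. The 2 B6Cc3 arrays of each tissue were averaged. B6Cc3, whose label gives no set, was counted with the inbred strains. AXB19b, SM and NZW were taken as arrays apart for their correlation with other arrays and KK for its tissue markers.

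Probes detected (p under 0.01) in at least 20% of arrays of either tissue (12775) entered the tissue tests, and those of each tissue (11746) the others. Tests were limma's, two-sided, with Benjamini-Hochberg adjustment over all such probes. Correlations had a two-sided test of r adjusted likewise, and 100000 permutations (scipy 1.17.1). The tests of tissue, strain set and agreement and the rule for levels were checked on simulated data. Probe genes came from the platform annotation, 23962 of 23978 named through RefSeq (GRCm38.p6). All probes of the members were described, and from each other list genes with the largest called differences were named. Similar genes were ranked by the lower r of both tissues. With 1 array a strain, p-values measure spread between strains only, and the number of arrays limits precision. The tests and permutations took strains as independent, although RI strains of a set share their parents. The study's own mapping corrected for relatedness between strains, which was not done here. Strain sequence differences under a probe can change hybridisation, and probe sequences and genotypes were not used here. Tissues of a strain were paired by the strain name in the labels. The pairing was not used in the main test of the tissue difference, only in its alternative with the strain as a block.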

Additional observations from a re-analysis of the deposited data

How the results depend on the processing

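The tissue difference kept its direction and its side of the threshold in 103 of 110 comparisons of a transferase probe with an alternative. With the authors' processed values 8 probes were higher in hippocampus in place of 5, the added ones being Gstm5 and the bright Gstp1 probes. Those values equal the deposited signals in hippocampus but not in striatum, and they were not normalized further here. The tissues may therefore be on unlike scales in that alternative. The share of all probes called with those values is not given here. With median centring the difference of Gstp1 ILMN_1223230 was -0.058, opposite in sign to its 0.035. With the strain as a replicate block, the 96 strains being paired across tissues, 6 probes were higher in hippocampus and 3 in striatum, Gstm5 being the added one (0.12, adjusted p = 0.00717, limma), and no other call changed. In hippocampus 2 probes had differed between strain sets, against 4 without the arrays that stood apart, 1 with no detection filter and 0 with RI sets only. In striatum, where 4 had passed, 2 did with median centring, 8 without those arrays, 2 with no detection filter and 7 with RI sets only. For the tissue difference by set, 1 passed without background correction (Mgst3 ILMN_2615035), 1 with median centring (Gsta4) and 4 without those arrays, against 0. The shares of all probes passing that test under these alternatives are not given here. The Gsto1 correlation between tissues, 0.014, was -0.0047 without AXB15, AXB19, BXA1 and BXA8, whose labels earlier results of these data had put in doubt, and -0.024 without CAST. Without the arrays that stood apart, the correlation of Gstp1 ILMN_1223230 with ILMN_2793329 was 0.0068 in striatum, and that of ILMN_2677046 with ILMN_2793329 -0.092 in hippocampus. The cause of these changes was not tested. Counts of separate levels stayed within 1.5 times under every alternative run. Leaving out MA, NZW and RIII (alone or with the arrays that stood apart) or B6Cc3, every alternative for the tissue difference by set, and the probe correlations without arrays were chosen after seeing the data. Probes near background, the dim probes of Gstm1 and Gstp1 and the low level of Mgst1 ILMN_2669416, limit what a difference there can show.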
